A study of Komagataella phaffii CBS 7435 with 16 samples.

Results

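The change in transcript abundance between an early and a late sampling at the same low oxygen setting was measured in chemostat cultures of Komagataella phaffii CBS7435, a wild-type methylotrophic yeast used to make recombinant proteins. The members are the 4 libraries titled 0% oxygen at 0.4 volume changes and the 4 titled 0% oxygen at 4 volume changes, chosen by title alone, 8 of the 16 libraries of the series. The other 8 libraries came from 30% oxygen at 5 volume changes and from 0% oxygen at 5 volume changes, 4 each. A volume change is the pumping of 1 working volume of fresh medium through the vessel. The treatment protocol describes the sampling points by time: 5 h after the switch to 8% inlet oxygen for 0.4 volume changes, 50 h for 4 and 70 h for 5, all following 66 h at 21% inlet oxygen, which is the point labelled 30%. At the stated dilution rate of 0.075 per h, those times correspond to 0.375, 3.75 and 5.25 volume changes, and the 66 h to 4.95, close to the numbers in the titles. The oxygen percentages of titles and protocol differ, and the groups are named here as in the titles. All groups share the wild-type genotype, glucose limitation, 25 °C and pH 5.5. Time after the switch, total time in the chemostat and volume changes differ together between these points, so they cannot be told apart. The labels call the replicates biological, without saying whether equal numbers came from the same vessel.

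Komagataella phaffii is a respiring yeast that ferments little while oxygen is plentiful. When oxygen becomes limiting, yeasts of this kind draw more energy from glycolysis and fermentation, and the steps of sterol, unsaturated fatty acid and heme synthesis that consume oxygen come under constraint. A chemostat holds the feed of nutrients fixed and, at steady state, the growth rate. After several volume changes most of the cells present have been formed under the condition then set. Growth rate at the early point, 5 h after the switch, was not examined here. Which features belong to those pathways is not given by the files or by the reference table used here, so features are described by identifier, level, length and place.

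The tables list 5564 features, of which 5378 have identifiers ending in t and a number (coding features, with lengths that are multiples of 3 in 99.96% of cases) and 186 end in r and a number. After removal of features with low counts, 5452 were tested. Of the 112 removed, 102 carried the suffix r and 10 the suffix t, and 13 had no count in any of the 8 libraries. Totals per library ran from 34417952 to 39931923 estimated counts at 0.4 volume changes and from 30205207 to 33473609 at 4 volume changes, so the late libraries were all less deep than the early ones. In a principal component analysis of these 8 libraries the first component held 57.7% of the variance and separated the groups, with scores from -18.71 to -17.65 at 0.4 and from 16.71 to 19.16 at 4 volume changes. The second component, with 18.2%, mainly spread the late libraries, from -15.32 in replicate 4 to 20.81 in replicate 2.

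Expression moved in both directions in similar numbers. In these bulk libraries, a change in some of the cells and a smaller change in all of them cannot be told apart. Of the 5452 features, 1900 (34.8%) were called between 0.4 and 4 volume changes, at an adjusted p under 0.05 in edgeR's quasi-likelihood test with Benjamini-Hochberg adjustment. At 4 volume changes 916 (16.8% of those tested) were higher and 984 (18% of those tested) were lower. The balance depended on scaling: 48.2% of called features were higher with the TMM factors used here, 55.8% with upper-quartile factors and 66.7% when log2(TPM + 1) of the deposited values was tested. On that TPM scale the median log2 fold change of all features was 0.12, against 0.01 with TMM factors. In 85.3% of called features, 1621 in all, the 4 values of one group lay above all 4 of the other, compared with 33.6% of all features tested. Calls were made on these same libraries, so this separation follows largely from the call and is not separate support for it.

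Most of the movement was modest. The median log2 fold change was 0.48 among features called higher and -0.55 among those called lower. Changes of 1.25-fold to 1.5-fold were the most common, with 797 features (41.9% of those called), and 526 features changed by 1.5-fold to 2-fold. Small changes are called less readily, which shapes these numbers. In simulated data, 12% of planted 1.25-fold, 72% of 1.5-fold and 96% of 2-fold changes were recovered. The simulation planted 50 features per size, left 5252 of 5452 unchanged and gave each feature the same spread in all groups. In the real libraries more features were called, and the median SD of log2(CPM + 1) was 0.115 at 0.4 and 0.18 at 4 volume changes. These rates therefore need not hold for the real libraries. At least 2-fold changes were found in 127 features that rose (2.33% of those tested) and 138 that fell (2.53%). Together they made up 4.86% of features tested. In 260 of these 265 the groups did not overlap, compared with 33.6% of all features tested. The 265 were chosen by the contrast of these same libraries, so this separation largely restates the choice.

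**Figure D1:**
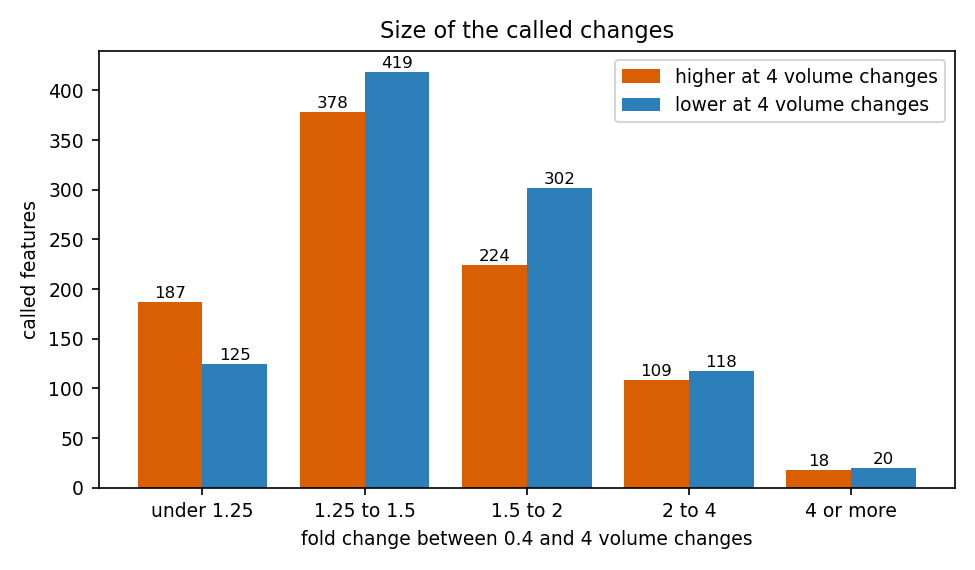
Number of called features (vertical axis) by size of the fold change between 0.4 and 4 volume changes (horizontal axis), higher in orange and lower in blue. Each bar carries its count; 18 features were at least 4-fold higher and 20 at least 4-fold lower.

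Among coding features, 17 rose at least 4-fold. All 17 had groups that did not overlap, compared with 1818 of all 5368 coding features tested. The 17 started low: their median level at 0.4 volume changes was 9.09 CPM (counts scaled to a library size of 1000000, TMM-normalised) and their median at 4 volume changes was 41.7 CPM. Another 20 coding features fell at least 4-fold, again without overlap, and these had started high, with a median of 258 CPM at 0.4 and 32.8 CPM at 4 volume changes. Both sets were chosen by the call and the ratio of these levels. The lack of overlap follows largely from that choice, and a low or high start follows in part. On the scale per length, the median deposited TPM of the 17 went from 8.02 to 44.1 and that of the 20 from 208 to 25.6. For comparison, the median over all coding features tested was 43.8 TPM at 0.4 and 48.2 TPM at 4 volume changes. The extreme log2 fold changes among coding features were 3.15 and -3.75.

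The coding features that carried the largest gain or loss of counts are given by identifier, 2 in each direction. They were chosen by that change from 250 coding features that were called, changed at least 2-fold, averaged at least 50 counts and did not overlap between groups, so their difference between these groups restates the choice. The files do not pair identifiers with gene names, and no function is assigned to them here. In these 8 libraries the estimated counts of all 4 were whole to within 0.01, so no division of their reads with a similar copy was seen.

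PP7435_Chr2-0137.t01, a coding feature of 1533 nt on chromosome 2, stood at 1504, 1310, 1574 and 1471 CPM in replicates 1 to 4 at 0.4 volume changes. At 4 volume changes it stood at 4469, 5995, 3873 and 3492 CPM. All late libraries lay above all early ones, and replicate 2 was the highest of the late libraries. The log2 fold change was 1.61 ± 0.17 (SE; adjusted p = 6.86e-07 in edgeR's quasi-likelihood test). At 30% oxygen it stood at 2943 ± 233 CPM (SD, n = 4) and at 5 volume changes of 0% oxygen at 3293 ± 597 CPM, so its level at 0.4 volume changes was the lowest of the 4 groups. Between the 5 volume change and 30% oxygen libraries, which are not part of the contrast of 4 with 0.4 but share its fitted spread, the log2 fold change was 0.16 ± 0.16 (adjusted p = 0.44 in the same test).

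PP7435_Chr4-0120.t01, a coding feature of 4512 nt on chromosome 4, stood at 315, 192, 165 and 158 CPM in replicates 1 to 4 at 0.4 volume changes. At 4 volume changes the values were 1960, 1792, 1545 and 1735 CPM. Replicate 1 was the highest library of both groups, and the groups were far apart. The log2 fold change was 3.08 ± 0.19 (SE; adjusted p = 8.4e-10 in edgeR's quasi-likelihood test). At 30% oxygen its level was only 89.8 ± 7.32 CPM, and at 5 volume changes of 0% oxygen 1321 ± 162 CPM (SD, n = 4). Unlike PP7435_Chr2-0137.t01, it was thus lowest in the oxygenated libraries and higher at each low oxygen point, with a log2 fold change of 3.88 ± 0.19 for 5 volume changes against 30% oxygen.

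PP7435_Chr1-1374.t01, a coding feature of 1614 nt on chromosome 1, lost the most counts. It stood at 12766, 12516, 12325 and 11795 CPM in replicates 1 to 4 of the early point. In the late replicates the values were 5328, 5575, 4838 and 4825 CPM. The libraries within each group lay close together and the groups did not overlap. The log2 fold change was -1.26 ± 0.16 (SE; adjusted p = 6.87e-06 in edgeR's quasi-likelihood test). It stood at 3001 ± 677 CPM at 30% oxygen and at 4761 ± 558 CPM at 5 volume changes of 0% oxygen (SD, n = 4), so the level at 0.4 volume changes was the highest of the 4 groups. At 5 volume changes it still exceeded 30% oxygen, by 0.67 ± 0.16 on the log2 scale (adjusted p = 0.00219 in the same test).

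PP7435_Chr1-1391.t01, also on chromosome 1, is short, at 408 nt. It stood at 9217, 7801, 9508 and 8363 CPM in replicates 1 to 4 at 0.4 volume changes. At 4 volume changes it stood at 3239, 5596, 2427 and 2000 CPM, where replicate 2 was well above the other late libraries and still below every early library. The log2 fold change was -1.40 ± 0.26 (SE; adjusted p = 0.000381 in edgeR's quasi-likelihood test). Its level at 30% oxygen, 9822 ± 545 CPM, was near that at 0.4 volume changes, while 5 volume changes of 0% oxygen gave 4986 ± 1180 CPM (SD, n = 4). The log2 fold change for 5 volume changes against 30% oxygen was -0.98 ± 0.26 (adjusted p = 0.00466 in the same test). Its spread at 4 volume changes, 3316 ± 1605 CPM, was the widest of the 4 features relative to its mean.

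**Figure D2:**
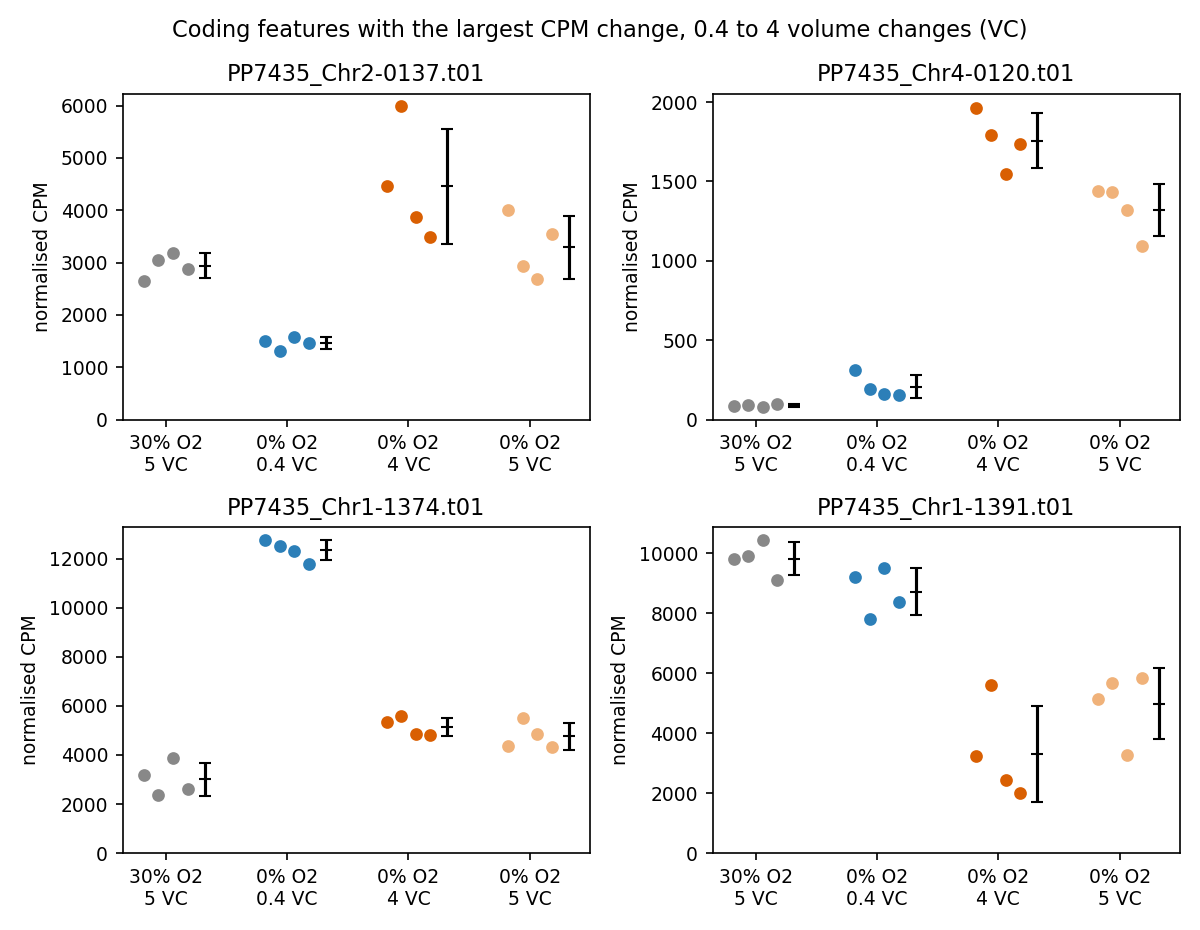
Normalised CPM (vertical axis, from 0) of the 4 features in each library, as points by group, with the mean and SD (n = 4) as black bars to the right. PP7435_Chr2-0137.t01 was lowest and PP7435_Chr1-1374.t01 highest at 0.4 volume changes, PP7435_Chr4-0120.t01 was lowest at 30% oxygen, and PP7435_Chr1-1391.t01 was lowest at 4 volume changes.

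As sets, the features changed at least 2-fold showed where the early and late states stood relative to the oxygenated one. Both sets were chosen by the contrast of 0.4 with 4 volume changes, with the spread fitted to all 16 libraries. Their values there are a description. The choice also favours extreme levels at 0.4 and 4, so the order of the groups follows from it in part. The 127 features that rose held 1.19%, 1.15%, 1.19% and 1.20% of normalised counts in replicates 1 to 4 at 0.4 volume changes. At 4 volume changes the shares were 3.41%, 3.52%, 3.20% and 3.03%. In the groups outside the contrast they held 2.76 ± 0.00853% at 30% oxygen and 2.95 ± 0.184% at 5 volume changes of 0% oxygen (SD, n = 4). Their joint share was therefore lowest at 0.4 volume changes, and the ranges of the other 3 groups lay between 2.75% and 3.52%. The 138 features that fell held 8.64%, 8.55%, 8.85% and 8.64% in the early libraries. In the late ones they held 3.53%, 3.81%, 3.37% and 3.29%. They held 6.48 ± 0.228% at 30% oxygen and 4.13 ± 0.258% at 5 volume changes. The share of the falling set was thus highest at 0.4 volume changes and lower at both late points than at 30% oxygen.

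**Figure D3:**
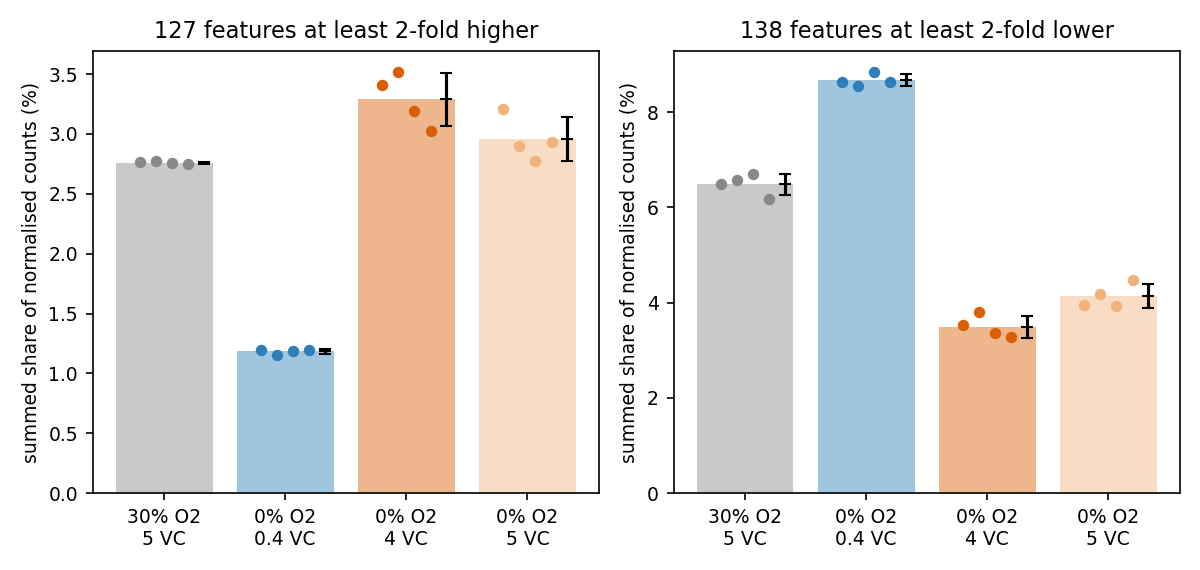
Summed share of normalised counts (vertical axis, %) of the 127 features that rose and the 138 that fell at least 2-fold between 0.4 and 4 volume changes, with 1 point per library, bars for group means and black bars for the SD (n = 4). The rising set is at most 1.20% at 0.4 volume changes, and the falling set peaks there at 8.55% to 8.85%.

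At 5 volume changes of 0% oxygen, the mean CPM of all 127 rising features lay above that at 0.4 volume changes. It lay short of the level at 4 volume changes for 97 and at or beyond it for 30. Of the 138 falling features, the mean at 5 volume changes lay between the levels at 0.4 and 4 for 107. It was at or beyond the level at 4 volume changes for 31, and none had returned to the level at 0.4. Both sets were chosen for a large difference between 0.4 and 4 volume changes. A mean from other libraries tends to fall between such levels through the choice alone. These counts therefore describe the sets and are not separate support for the change. Median CPM over the rising set was 55.0 at 30% oxygen. Under low oxygen it was 29.7 at the early point, 67.6 at 4 and 62.0 at 5 volume changes. Over the falling set it was 117, 247, 82.2 and 92.3 CPM in the same order.

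The contrast of 5 volume changes with 30% oxygen takes its means from other libraries than the contrast of 4 with 0.4, although both use the spread fitted to all 16. In it 45.9% of all features tested were called, 23.3% higher and 22.5% lower. Of the 916 features that rose from 0.4 to 4 volume changes, 337 (36.8%) were higher and 190 (20.7%) lower at 5 volume changes than at 30% oxygen. These 337 were 26.5% of all features higher in that comparison, and the 190 were 15.5% of all lower ones. Of the 984 features that fell, 186 (18.9%) were higher and 350 (35.6%) lower, which is 14.6% and 28.5% of the higher and lower features there. For the 127 that rose at least 2-fold the numbers were 53 higher (41.7%) and 30 lower (23.6%), and for the 138 that fell at least 2-fold 41 higher (29.7%) and 58 lower (42%). Among features that rose with time at low oxygen, those above the oxygenated level thus outnumbered those below it, and the reverse held among those that fell; these shares were not tested against each other.

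Relative to 30% oxygen, comparisons that share libraries with this one gave the following medians side by side. The 127 rising features had a median log2 fold change of -0.88 at 0.4 volume changes, 0.41 at 4 and 0.22 at 5. The 138 falling features had medians of 0.97, -0.37 and -0.17. The spread within each set was wide: at 4 volume changes the interquartile range of the rising set ran from -0.27 to 1.10, and that of the falling set from -1.54 to 0.32. Over all features tested the medians were 0.01, 0.00 and 0.02.

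The balance of rising and falling features varied with abundance. Features were split into 4 classes of 1363 by mean deposited TPM over all 16 libraries. In the most abundant class, above 101 TPM, 208 rose (15.3%) and 312 fell (22.9%), and 33 rose and 70 fell at least 2-fold. In the least abundant class, below 27.4 TPM, 237 rose (17.4%) and 179 fell (13.1%), and 45 rose and 11 fell at least 2-fold. Of all features tested 16.8% rose and 18% fell. The order of the 2-fold counts in these classes was the same with RLE factors, upper-quartile factors and on log2(TPM + 1), where the most abundant class had 48 and 57 and the least abundant 44 and 6. The classes hold both coding and r features, some of them barely detected. With at least 50 counts required in 4 libraries, 1286 features of the least abundant class were tested. Of these, 37 rose and 10 fell at least 2-fold. Without the 2-fold limit, the excess of falling features in the most abundant class turned into an excess of rising ones on log2(TPM + 1), with 295 higher and 219 lower. In the least abundant class the same scale gave 277 higher and 83 lower.

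**Figure D4:**
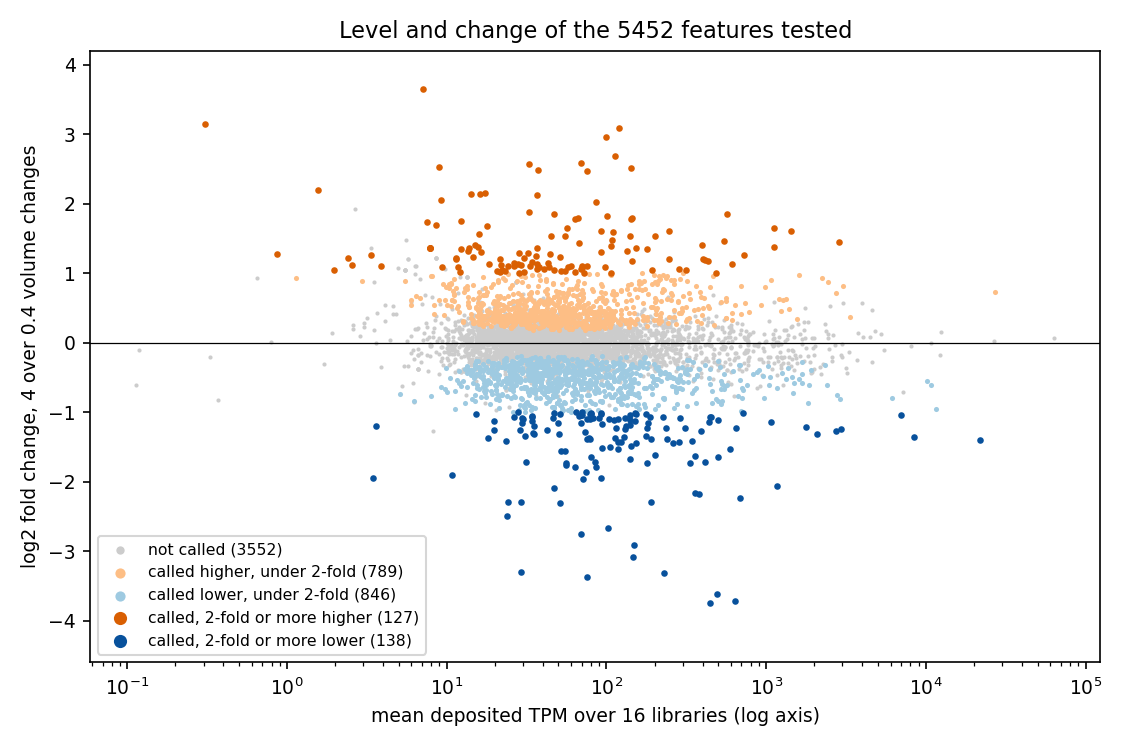
Log2 fold change of 4 over 0.4 volume changes (vertical axis) against mean deposited TPM over 16 libraries (horizontal log axis), with 1 point per tested feature and colours for the call. The least abundant class holds 45 features that rose at least 2-fold against 11 that fell, and 37 against 10 with at least 50 counts required in 4 libraries.

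Length classes differed as well. Of 254 coding features of up to 300 nt, 22 rose (8.66%) and 53 fell (20.9%), with a median log2 fold change of -0.14. Without replicate 4 at 0.4 volume changes these numbers were 16 and 35. In the class from 1501 to 2400 nt, 275 of 1221 rose (22.5%) and 226 fell (18.5%), with a median of 0.03. This excess of rising features turned without replicate 3 at 0.4 volume changes, with 215 higher and 218 lower, and was 257 against 253 without replicate 2 at 4. Above 2400 nt the numbers were 105 and 156 of 652, and these turned to 123 and 79 on log2(TPM + 1) and to 135 and 134 with upper-quartile factors. The excess of falling features among the shortest kept its direction under those scalings, with 30 higher and 43 lower on log2(TPM + 1) and 24 and 42 with upper-quartile factors. The difference between length and effective length, which follows fragment length, ran from 232.0 to 249.9 nt in the early and from 226.5 to 251.4 nt in the late libraries, so these ranges overlapped; its part in the class differences was not tested.

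**Figure D5:**
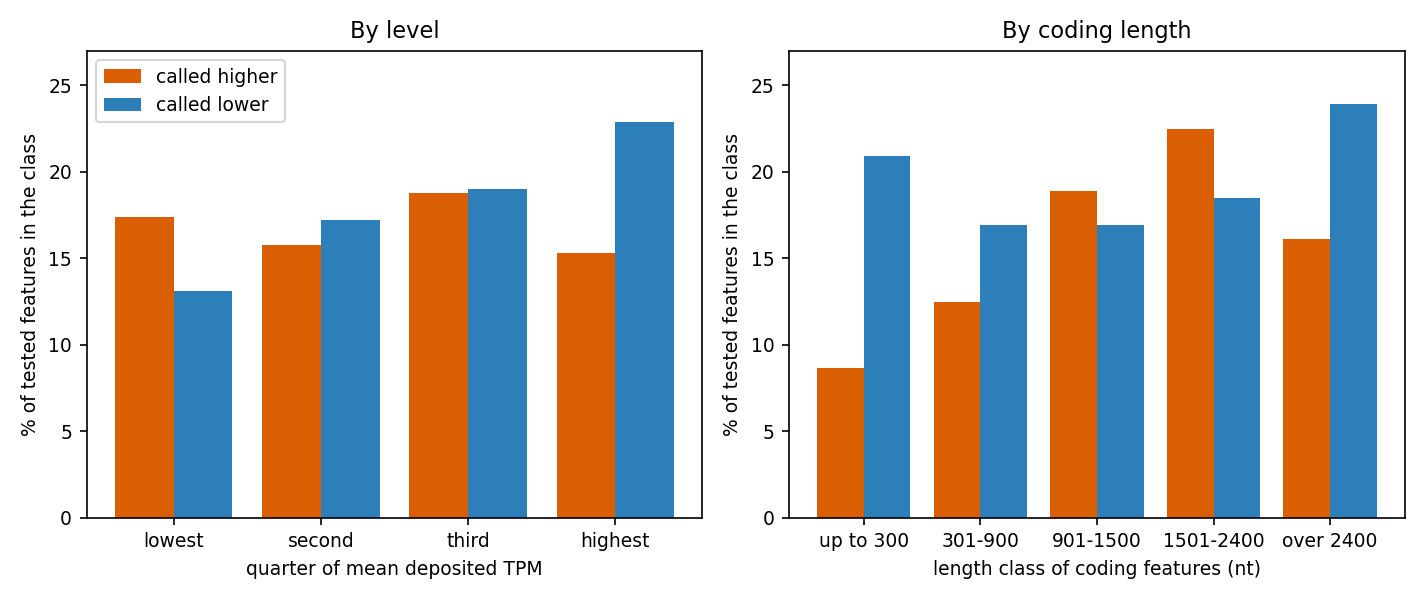
Share of tested features called higher (orange) and lower (blue) at 4 volume changes, as a percentage of each class (vertical axis), by class of mean deposited TPM (left) and by coding length (right). In the most abundant class 15.3% were higher and 22.9% lower, and among coding features of up to 300 nt 8.66% were higher and 20.9% lower.

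The numbered chromosomes took part evenly. Called features made up 35.1% of those tested on chromosome 1, 33.8% on chromosome 2, 36.4% on chromosome 3 and 35% on chromosome 4, beside 34.8% over all. At least 2-fold, 44 features were higher and 43 lower on chromosome 1, 27 and 33 on chromosome 2, 36 and 29 on chromosome 3, and 20 and 32 on chromosome 4, beside 2.33% higher and 2.53% lower over all features tested.

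The mitochondrial chromosome, taken from identifiers that contain Mit, encodes parts of the respiratory chain and of the mitochondrial ribosome. Of its 49 features 39 were tested, and 0 rose and 1 fell (2.56% called, beside 34.8% of all features tested). The median log2 fold change of the 39 was -0.10, and its sign rested on single libraries: it was 0.09 without replicate 1 at 4 volume changes, 0.08 without replicate 2 at 4, 0.01 without replicate 2 at 0.4, and -0.38 without replicate 4 at 4. The member that fell is a 71 nt r feature near the detection limit, at 0.633 CPM at 0.4 and 0.169 CPM at 4 volume changes. Of the 15 coding members tested, 9 had positive and 6 negative values, from -0.37 to 0.59. None was called, and none had groups that did not overlap, beside 33.6% of all features tested. The number of positive values fell to 4 when replicate 4 at 4 volume changes was left out and reached 13 when replicate 1 was, so no direction can be given for them. DESeq2 called 2 of the 39 higher. Without replicate 1 at 4 volume changes edgeR called 3 higher, and without replicate 2 it called 2, so the count rested on single libraries.

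Mitochondrial coding features took 2.32%, 3.47%, 2.62% and 2.57% of counts in replicates 1 to 4 at 0.4 volume changes. At 4 volume changes they took 2.38%, 2.31%, 3.90% and 4.93%. The late libraries were the more scattered: replicates 3 and 4 lay above every early library, replicate 2 below every early library and replicate 1 below all but 1 of them. The means, 2.75 ± 0.501% and 3.38 ± 1.27% (SD, n = 4), differed by less than the test could call (two-sided exact permutation test, p = 0.429; adjusted over 3 tests of shares, p = 0.714), where 4 libraries against 4 allow no p below 0.0286. This order of the late libraries, with replicates 4 and 3 high, ran opposite to their scores on the second principal component; its part in the spread of other features was not tested.

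Features with suffix r outside the mitochondrial chromosome were rarely called. Of 153, 60 were tested, and 6 rose and 1 fell (11.7% called, beside 34.8% of all). Their median log2 fold change was 0.87 (quartiles 0.04 and 1.10), beside 0.01 over all features tested. Under the alternatives listed below, the median of this list ran from 0.51 to 0.90. Of the 60, 50 had estimated counts that were not whole and 39 had the same values as another feature, so they are not separate measurements. The 6 are 72 to 76 nt long and were barely detected, with at most 18 counts in any early and 37 in any late library. Of these 6, 4 had the same estimated counts in every library after rounding to 3 decimals, so the 6 stand for 3 separate measurements. Without replicate 2 or replicate 3 at 0.4 volume changes, or without replicate 4 at 4 volume changes, 1 was called higher in place of 6, and with at least 50 counts required in 4 libraries 0 were. The member that fell stood at 21.9, 22.4, 19.8 and 15.9 CPM at 0.4 and at 8.34, 5.47, 14.2 and 15.7 CPM at 4 volume changes, a log2 fold change of -0.87. Its highest late library was only just below its lowest early one. The share of counts in all such features was 0.0182 ± 0.00456% at 0.4 and 0.0175 ± 0.00393% at 4 volume changes (SD, n = 4; exact permutation p = 0.714).

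The 10 most counted features of each library took 11.7 ± 0.235% of counts at 0.4 and 11.3 ± 1.20% at 4 volume changes (SD, n = 4; two-sided exact permutation p = 0.543, adjusted p = 0.714). The late values were 10.1%, 13.0%, 10.9% and 11.4% in replicates 1 to 4, with replicate 2 the highest. The concentration of the transcriptome on its most abundant features was thus not distinguishable between the points with these libraries.

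Replicates were less alike at the late point. The median SD of log2(CPM + 1) over features was 0.115 at 0.4 and 0.18 at 4 volume changes, and 74.2% of features had the larger SD at 4. Without replicate 2 the late median was 0.138. In replicate 2 at 4 volume changes, 87 features lay at least 2-fold from the median of the other 3 late libraries, 76 of them above it, whereas no early library had more than 6 such features. The TMM factor of replicate 2 was 0.8658, against 1.051, 1.044 and 1.043 in late replicates 1, 3 and 4. A lower factor raises every CPM value of a library. How much of the excess above the median came from scaling was not tested. Of these 87, 20 (23.0%) were among the called features, beside 34.8% of all tested, and 10 (11.5%) among those called and changed at least 2-fold, beside 4.86% of all tested. Leaving replicate 2 at 4 volume changes out gave 45.7% of called features higher in place of 48.2%.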

How the data were processed

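RNA was taken from chemostat cells, depleted of ribosomal RNA and made into directional libraries, per the labels' protocols. The authors deposited 1 table per library with estimated counts (reads assigned to a feature, not normalised) and TPM values (counts per effective length, scaled to sum to 1000000), per the file headers. The submitters' processing notes name kallisto 0.44.0, cutadapt 1.18, SAMtools 1.9, DESeq2 1.36.0, Bowtie2 2.3.4.1 and R 4.2.0, with no roles. The genome build, annotation and strand setting are not given in the labels or file headers, so overlapping or antisense features may share reads. Of 5040 genes in the reference table of assembly ASM2700v1, 0 matched an identifier, so planned lists by gene name could not be used and no sequence or coordinate is shown.

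Estimated counts were rounded to whole numbers. In edgeR 4.0.16 (R 4.3.3), low features were removed with filterByExpr, libraries were scaled by TMM, and all 16 entered 1 quasi-likelihood fit with a mean for each group. Contrasts were tested with glmQLFTest and p-values adjusted over the 5452 features by Benjamini-Hochberg; a feature was called at an adjusted p under 0.05. Standard errors were derived from the F statistic. CPM values use TMM-scaled library sizes. Shares per library were compared by exact permutation tests in SciPy 1.17.1. P-values measure only the spread between these cultures, whose independence the labels do not detail.

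Named features are the 2 coding features with the largest gain and the 2 with the largest loss in mean CPM among those called, changed at least 2-fold, not overlapping between groups and averaging 50 counts or more. Members, lists and rules were chosen with earlier results of these data known. The libraries themselves were taken by their titles and not by their values. The script was tested on simulated data. Every pair of replicates in both groups differed beyond counting noise (chi-square divided by its degrees of freedom, 19.1 or more). Alternatives were upper-quartile or RLE factors, limma-voom, DESeq2 1.42.0, limma on log2(TPM + 1) and log2(TPM + 0.1) (limma 3.58.1), no filter, a filter of 50 counts in 4 libraries, only the 8 libraries compared, a replicate block, and each of the 8 libraries left out in turn.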

Additional observations from a re-analysis of the deposited data

How the results depend on the processing

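All 4 named features kept their direction and call under all 18 alternatives, with log2 fold changes from 1.43 to 1.72 for PP7435_Chr2-0137.t01, 2.97 to 3.36 for PP7435_Chr4-0120.t01, -1.31 to -1.14 for PP7435_Chr1-1374.t01 and -1.77 to -1.20 for PP7435_Chr1-1391.t01. Of the 127 features that rose at least 2-fold, 118 stayed called without any single library and 116 under all alternatives; of the 138 that fell, 137 did under both. Of the 916 called higher, 628 stayed called without any single library and 625 under all alternatives; of the 984 called lower, 730 and 571 did, and 597 on log2(TPM + 1). Without 1 library the calls numbered 1590 to 1958, with 739 to 915 higher and 845 to 1063 lower, and 45.7% to 51.3% higher; the numbers changed at least 2-fold ran from 111 to 140 and from 131 to 155. Upper-quartile factors gave 55.8% of calls higher. On log2(TPM + 1) 604 features were lower, 66.7% of calls were higher, and 107 of the falling features (186 in the main test) were higher at 5 volume changes than at 30% oxygen; on log2(TPM + 0.1) these were 605, 66.6% and 106. By construction the TPM scale gives each library the same total per length; the cause of the shift was not tested.

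The small lists were the least stable. Mitochondrial features called higher numbered 2 with DESeq2 and 0 to 3 without 1 library; the 1 called lower became 0 with the stricter filter and with only the 8 libraries, and 0 to 1 without 1 library. Other r features called higher numbered 12 with no filter, 0 with the stricter filter, 1 with only the 8 libraries, and 1 to 6 without 1 library; the 1 lower was 0 to 1. With the replicate number as a block 1843 features were called in place of 1900, and 2 such r features were higher. Deviations of equally numbered libraries from their group means correlated at 0.077, -0.367, -0.193 and -0.118. For libraries with unequal numbers the correlations ran from -0.187 to 0.358. Equal numbers did not correlate above that range, which does not settle whether they came from the same vessel. The cause of these changes was not tested.

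The r features called higher had at most 37 counts in any library of both groups, so counting error limits these calls. Without gene names, no pathway was tested.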

Other observations

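Features listed next to each other in the tables were compared for direction. The listing order is not stated to be the genomic order, and neighbours that overlap may share reads. Of 5351 adjacent pairs with both features tested on the same chromosome, 727 (13.6%) had both called, 501 in the same direction and 226 in opposite directions. Of all single features tested 34.8% were called, 916 higher and 984 lower. A share of single features is not a background for pairs, and the pairs were not tested against any. Among 25 adjacent pairs in which both changed at least 2-fold, 21 moved the same way, beside 501 of the 727 with both called. The longest run of adjacent features called in the same direction had 5 members, and there were 3 runs of that length.

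The share of normalised counts that would have to be reassigned to turn one library into another was 12.9% to 17.3% over the 16 pairs of an early with a late library, with a median of 14.2%. Within the early group it was 2.88% to 6.56% over 6 pairs. Within the late group it was 4.77% to 14.0%, and 4.77% to 8.03% without replicate 2, so the distances among late libraries overlapped those between the groups only through replicate 2. Between the group means 12.2% of counts were reassigned. The 127 features that rose at least 2-fold gained 2.10 percentage points, while gains summed to 4.99 points over called features changed by less than 2-fold and to 5.07 over features not called. The share of the 138 that fell decreased by 5.17 points and that of PP7435_Chr1-1374.t01 and PP7435_Chr1-1391.t01 together decreased by 1.17 points. Those called features under 2-fold whose share was lower decreased by 4.67 points in all, and such features among those not called decreased by 2.32.

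Estimated counts more than 0.01 from whole in any of the 8 libraries, where reads were divided between features, occurred in 71 of 5368 coding features tested (1.32%). Among coding features changed at least 2-fold they occurred in 7 of the 121 that rose (5.79%) and 4 of the 137 that fell (2.92%), so those values are less certain, and in 50 of the 60 r features tested outside the mitochondrial chromosome.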
